A study of Mus musculus with 8 samples.

Results

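The 10 genes for transcription factors of epidermal differentiation described here are Trp63, Klf4, Grhl1, Grhl3, Ovol1, Gata3, Cebpa, Cebpb, Zfp750 and Prdm1. They were taken by gene name from a deposited table of 34745 Ensembl genes, where each of the 10 names occurred once. RNA sequencing had been done on 8 samples of whole skin from mice killed at 16 weeks, in 2 groups of 4. Mice of the group labelled NcstnΔKC carried floxed Ncstn and a hemizygous Krt14 CreER transgene, a tamoxifen-activated recombinase driven by the promoter of a basal keratinocyte keratin, and were given 20 mg per kg of tamoxifen daily for 5 days from 8 weeks of age and every 10 days after that, by gavage. Nicastrin, the product of Ncstn, is part of the γ-secretase complex that cleaves Notch receptors and other membrane proteins. The normal group was given corn oil; the protocol text gives it the same floxed and CreER genotype, whereas its genotype label reads wildtype. All mice are labelled male. The tissue taken is called lesional skin for both groups, and no label says whether replicates came from separate animals, so p-values measure the spread between these samples.

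The libraries held 5835422 to 12893174 counts, and all 4 NcstnΔKC totals lay above the normal ones. For Ncstn itself the whole-gene level did not separate the labels: normal skin had 58.4 to 61.9 CPM and the other group 50.2 to 66.8 CPM (log2 fold change -0.07 ± 0.12, SE, adjusted p = 0.663 by edgeR). It passed as lower with libraries scaled by basal keratinocyte genes (-0.76) and as higher with pan-epithelial scaling (0.38). Counts of the whole gene need not show a deleted exon, and whole skin holds cells without the recombinase, so the groups are called by their labels. Replicates 3 and 4 of both groups carried 22304 to 37109 counts of Xist, a transcript of female cells, and the other 4 libraries 4 to 9, although all are labelled male. Normal replicate 2 also stood apart: genes of the inner root sheath, a layer of the growing hair, took 3.28% of its counts against 0.00246% to 0.0428% in the other normal libraries and at most 0.000745% in the NcstnΔKC ones. Markers common to all epithelia took 0.977% to 1.33% of normal counts and 0.904% to 1.06% of NcstnΔKC counts, so epithelial RNA was present in every library. Skeletal muscle genes took 0.698% to 5.62% of normal counts and 0.0756% to 0.599% of NcstnΔKC counts, and genes of the mitochondrial genome 3.42% to 5.43% and 0.680% to 0.939%. Of the 15 lists read, all but that of the mitochondrial genome were checked for markers at 0 in all libraries, and none was found. The part of these shares in the results below was not tested beyond the scalings and removals named there. The groups did not overlap for 8 of the 15 lists, each with the smallest exact permutation p that 4 against 4 libraries allow, 0.0286, which became 0.0536 after adjustment over the 15, so the adjusted p is no measure of how far apart they lay.

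The epidermis renews from a basal layer whose cells stop dividing, move outward and build the cornified barrier. Trp63 encodes p63, the factor that sets up and keeps the stratified epithelial state. Zfp750 encodes a zinc finger protein that acts downstream of p63 to turn on late differentiation, partly through Klf4. Klf4, Grhl3, Ovol1, Prdm1 and the C/EBP proteins act in suprabasal cells, where barrier genes are switched on and the cell cycle is left, while Gata3 acts in epidermis and in the inner root sheath of the hair. Several of these genes are also used outside keratinocytes: Gata3 in T cells, Cebpa and Cebpb in fat and myeloid cells, Prdm1 in plasma cells and sebaceous gland, and Klf4 in blood vessels.

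The 10 factors did not move as a block. Zfp750, Gata3 and Grhl1 fell, Prdm1, Cebpb and Grhl3 rose, and Trp63, Klf4, Ovol1 and Cebpa did not pass the test. Zfp750 showed the largest difference, being 3.59-fold lower in the libraries labelled NcstnΔKC, and Prdm1 was 2.61-fold higher. All 10 passed the filter on low counts, with 81 counts or more in every library. The 6 calls (edgeR's quasi-likelihood test, Benjamini-Hochberg adjusted p under 0.05) stand against 44.1% of the 15684 genes tested that were called, 21.4% higher and 22.7% lower, so that many calls are common in these data. Groups did not overlap for 6 of the 10 factors, and for 41.6% of all genes tested. The median log2 fold change was 0.51 over the factors and -0.02 over all genes tested. Levels are in CPM (counts relative to library sizes scaled by the TMM method) unless FPKM is named.

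**Figure D1:**
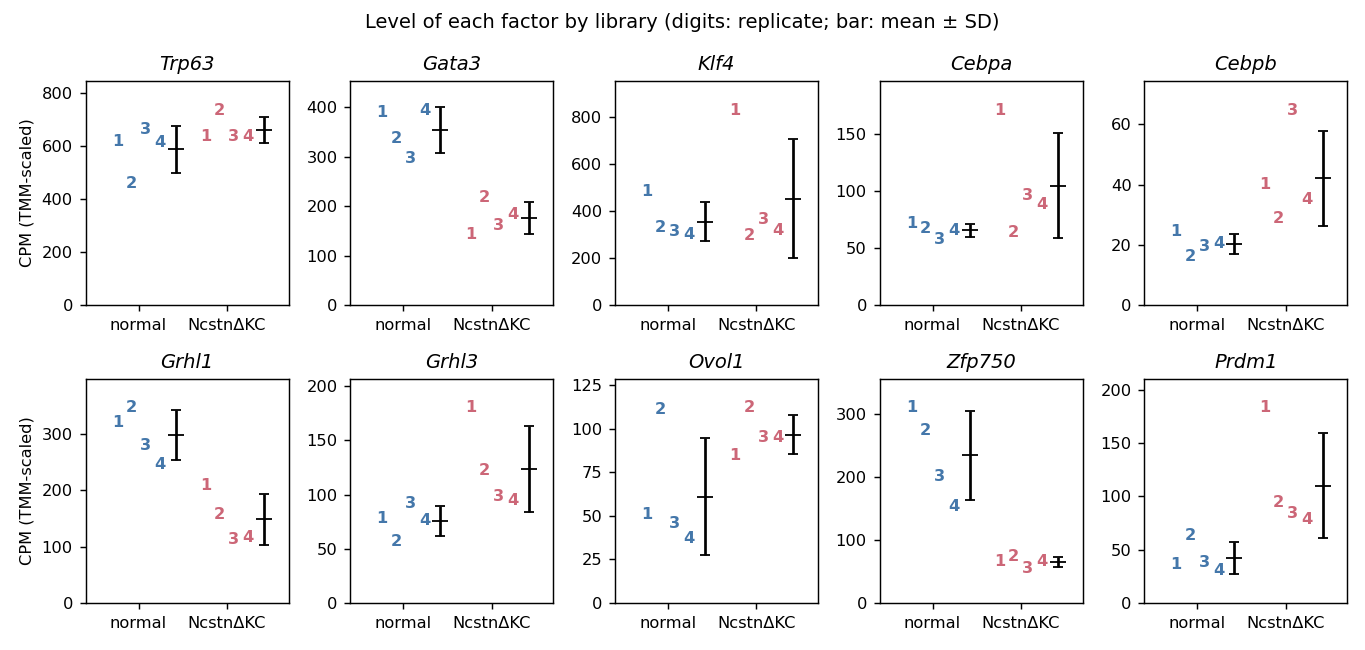
Level of each of the 10 factors in TMM-scaled CPM (vertical axes from 0) in the 4 normal and 4 NcstnΔKC libraries, each library drawn as its replicate number, with the mean and SD beside it. Zfp750, Gata3 and Grhl1 are lower in all NcstnΔKC libraries and Prdm1, Cebpb and Grhl3 higher in all, while the groups overlap in the other 4.

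Zfp750 (ENSMUSG00000039238, chromosome 11, 121510978 to 121519333, minus strand, mm10 as for all positions here) had 310, 274, 201 and 153 CPM in the normal libraries, replicates 1 to 4 in order, and 66.2, 74.6, 54.7 and 65.6 CPM in those labelled NcstnΔKC. The lowest normal library was thus still above the highest NcstnΔKC library, and the NcstnΔKC libraries lay close together. Mean levels of 234 ± 70.7 and 65.3 ± 8.18 CPM (SD, n = 4 per group) gave -1.84 ± 0.22 on the log2 scale (SE, edgeR adjusted p = 0.000449). Zfp750 lies within Tbcd, a gene for a tubulin-folding cofactor on the opposite strand, with no shared exon bases; Tbcd rose by 1.04 on the log2 scale. A call for Zfp750 was made under 25 of 26 alternatives, with log2 fold changes of -2.55 to -1.37, and was lost only in the 4 libraries without Xist (-2.05, adjusted p = 0.0711 over the alternatives' range of 1.13e-11 to 0.0711), where 4 genes in all were called.

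Gata3 (ENSMUSG00000015619, chromosome 2, 9857078 to 9890034, minus strand), a zinc finger factor needed for barrier lipids and for the inner root sheath, had 390, 336, 296 and 394 CPM in the normal libraries and 142, 218, 161 and 183 CPM in the NcstnΔKC libraries. The groups did not overlap. Mean levels were 354 ± 46.6 in normal and 176 ± 32.8 CPM in NcstnΔKC skin (SD, n = 4 per group), and the log2 fold change was -1.01 ± 0.17 (SE, edgeR adjusted p = 0.00172). Without normal replicate 2, the library with many inner root sheath transcripts, the value was -0.97. T cell markers took 0.002% to 0.00631% of normal counts and 0.00634% to 0.0178% of NcstnΔKC counts. Hair follicle stem cell markers took 0.153% to 0.285% and 0.0449% to 0.0713%, and the part of any of these cell types in the lower Gata3 was not tested. In whole skin, fewer cells of a type and less RNA per cell cannot be told apart.

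Grhl1 (ENSMUSG00000020656, chromosome 12, 24572287 to 24617391, plus strand), a grainyhead-like factor that acts on desmosomal genes, had 321, 346, 279 and 246 CPM in the normal libraries and 209, 157, 112 and 116 CPM in the NcstnΔKC libraries. All NcstnΔKC libraries lay below all normal ones. Mean levels were 298 ± 44.7 in normal and 148 ± 45.4 CPM in NcstnΔKC skin (SD, n = 4 per group), and the log2 fold change was -1.01 ± 0.22 (SE, edgeR adjusted p = 0.00604). Gata3 and Grhl1, like Zfp750, were called lower under 25 of 26 alternatives and not in the 4 libraries without Xist (-1.0 and -0.86, both with adjusted p = 0.145). The adjusted p ran over the alternatives from 6.88e-07 to 0.145 for Gata3 and from 0.000308 to 0.145 for Grhl1.

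Prdm1 (ENSMUSG00000038151, chromosome 10, 44437177 to 44528501, minus strand), which encodes the repressor Blimp1, had 36.4, 63.7, 38 and 30.7 CPM in the normal libraries and 183, 94.2, 84.2 and 78.4 CPM in the NcstnΔKC libraries. NcstnΔKC replicate 1 was far above the rest, and the other 3 were still above every normal library. Mean levels were 42.2 ± 14.7 in normal and 110 ± 49.0 CPM in NcstnΔKC skin (SD, n = 4 per group), and the log2 fold change was 1.38 ± 0.33 (SE, edgeR adjusted p = 0.00892). Without NcstnΔKC replicate 1 it was 1.03 and still passed. Markers of B and plasma cells took 0.000377% to 0.00125% of normal counts and 0.000337% to 0.00803% of NcstnΔKC counts, with the lowest share in NcstnΔKC replicate 1. Sebaceous gland markers took 0.208% to 0.627% of normal counts and 0.0368% to 0.187% of NcstnΔKC counts, with the highest NcstnΔKC share in replicate 1. The part of either cell type in the Prdm1 values was not tested.

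Cebpb (ENSMUSG00000056501, chromosome 2, 167688915 to 167690418, plus strand), a leucine zipper factor of growth arrest and of inflammatory genes, had 24.4, 16.3, 19.5 and 20.5 CPM in the normal libraries and 39.9, 28.6, 64.6 and 35.1 CPM in the NcstnΔKC libraries. The groups did not overlap, and replicate 3 was the highest of the NcstnΔKC libraries. Mean levels were 20.2 ± 3.35 in normal and 42 ± 15.7 CPM in NcstnΔKC skin (SD, n = 4 per group), and the log2 fold change was 1.06 ± 0.26 (SE, edgeR adjusted p = 0.0102). Cebpb shares 312 exon bases with Tmem189 on the opposite strand, and the strand setting of the counting is not stated; Tmem189 itself had -0.23 and did not pass. Neutrophil markers took 0.00148% to 0.00218% of normal counts and 0.00441% to 0.0431% of NcstnΔKC counts, macrophage markers 0.0464% to 0.0914% and 0.0553% to 0.349%, and their part in the higher Cebpb was not tested.

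Grhl3 (ENSMUSG00000037188, chromosome 4, 135541888 to 135573630, minus strand), the grainyhead-like factor of barrier formation and wound closure, had 77.7, 57.1, 91.8 and 75.7 CPM in the normal libraries and 180, 122, 98.6 and 94.5 CPM in the NcstnΔKC libraries. The groups did not overlap, but the lowest NcstnΔKC library lay just above the highest normal one. Mean levels were 75.6 ± 14.3 in normal and 124 ± 39.2 CPM in NcstnΔKC skin (SD, n = 4 per group), and the log2 fold change was 0.71 ± 0.23 (SE, edgeR adjusted p = 0.0331). This was the least firm of the 6 calls. It was lost under 8 of 26 alternatives. These were the replicate block (0.68, adjusted p = 0.0574), basal keratinocyte scaling (0.06), and leaving out normal replicate 2 (0.65), normal replicate 4 (0.76) or NcstnΔKC replicate 2 (0.72). The call was also lost without both NcstnΔKC replicate 1 and normal replicate 2 (0.36), and in the libraries with Xist alone (0.25) or without Xist alone (1.16, adjusted p = 0.123). The adjusted p ran from 0.00098 to 0.876 over the alternatives. In NcstnΔKC replicates 3 and 4 Grhl3 exceeded the normal libraries of the same Xist status by 0.21 on the log2 scale, and in replicates 1 and 2 by 1.16.

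Trp63 (ENSMUSG00000022510, chromosome 16, 25683763 to 25892102, plus strand) was the most counted of the 10 genes and the least changed. It had 618, 459, 662 and 613 CPM in the normal libraries and 637, 736, 637 and 638 CPM in the NcstnΔKC libraries, and the ranges overlapped. The log2 fold change was 0.17 ± 0.15 (SE, edgeR adjusted p = 0.377), with a 95% interval of -0.17 to 0.51. Counts of the whole gene do not separate its long and N-terminally truncated isoforms.

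Klf4 (ENSMUSG00000003032, chromosome 4, 55527143 to 55532466, minus strand), a Krüppel-like factor of the suprabasal layers, had 481, 328, 314 and 299 CPM in the normal libraries and 828, 296, 363 and 318 CPM in the NcstnΔKC libraries. Replicate 1 was the highest library in both groups, and the remaining 6 libraries lay between 296 and 363 CPM. Its log2 fold change of 0.34 ± 0.34 (SE, edgeR adjusted p = 0.437, 95% interval -0.42 to 1.11) became -0.12 without NcstnΔKC replicate 1. Endothelial markers took 0.0285% to 0.0332% of normal counts and 0.0318% to 0.0437% of NcstnΔKC counts.

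Ovol1 (ENSMUSG00000024922, chromosome 19, 5549137 to 5560575, minus strand), a zinc finger repressor of proliferation in differentiating cells, had 50.9, 111, 45.5 and 37.0 CPM in the normal libraries and 84.8, 112, 95 and 95 CPM in the NcstnΔKC libraries. One normal library, replicate 2, reached the NcstnΔKC range, while the other 3 lay below it. The log2 fold change was 0.67 ± 0.32 (SE, edgeR adjusted p = 0.116, 95% interval -0.05 to 1.39). Without normal replicate 2, the library with inner root sheath transcripts, it was 1.18 and passed (adjusted p = 0.00168, with a range over the alternatives of 0.00081 to 0.818). It also passed with the replicate block (0.80, adjusted p = 0.0415) and in the libraries with Xist alone (1.24). In the GENCODE M21 annotation, whose coordinates for Ovol1 differ from the deposited ones, Ovol1 shares 690 exon bases with the pseudogene Gm31166 on the opposite strand. Gm31166 is not among the deposited genes, so no counts were assigned to it. Without the strand setting, the origin of reads counted there cannot be told.

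Cebpa (ENSMUSG00000034957, chromosome 7, 35119293 to 35121928, plus strand), the C/EBP family member of cell cycle exit, had 71.8, 67.5, 57.3 and 65.7 CPM in the normal libraries and 171, 64.2, 96.0 and 88.2 CPM in the NcstnΔKC libraries. NcstnΔKC replicate 1 was again the highest, and replicate 2 lay within the normal range. The log2 fold change was 0.68 ± 0.27 (SE, edgeR adjusted p = 0.0687), 0.34 without NcstnΔKC replicate 1 and 0.86 without NcstnΔKC replicate 2, where it passed (adjusted p = 0.0237, with a range over the alternatives of 0.00344 to 0.946). Adipocyte markers took 0.0407% to 0.109% of normal counts and 0.0117% to 0.0536% of NcstnΔKC counts, while macrophage and neutrophil markers, given beside Cebpb, had higher mean shares in the libraries labelled NcstnΔKC (3.92-fold and 14.4-fold). Their part in the Cebpa values was not tested. NcstnΔKC replicate 1 was the highest of its group in Klf4, Cebpa, Grhl3, Prdm1 and Grhl1 and the lowest in Gata3 and Ovol1, and also held the fewest neutrophil (0.00441%) and macrophage (0.0553%) transcripts of its group.

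The scale on which libraries are set side by side changed the calls of the rises and not the direction of the falls. When libraries were scaled by 12 basal keratinocyte genes, whose share of counts was 2.03-fold higher in the libraries labelled NcstnΔKC, the median of all genes tested moved to -0.72. The scale is the summed counts of these genes, so the most counted weigh most. In the main fit 11 of the 12 were called higher and 1 lower, and a rise shows on this scale only where it exceeds that of the sum. On that scale Prdm1 had 0.69, Cebpb 0.38 and Grhl3 0.06, none of which passed, while Zfp750 (-2.55), Gata3 (-1.72) and Grhl1 (-1.69) did, as did Trp63 in the other direction from before (-0.52, adjusted p = 0.0327, with a range over the alternatives of 0.0139 to 0.784). The share of 16 genes common to all epithelia was 0.913 of the normal one. In the main fit 3 of these were called higher, 4 lower and 9 did not pass, with a median log2 fold change of 0.02. Their scale is also a sum in which the most counted genes weigh most. With libraries scaled by them, the median of all genes was 0.43 and all 10 factors passed, 7 higher and the same 3 lower. Zfp750 then had -1.37, Grhl1 -0.59, Gata3 -0.54, Trp63 0.63 and Klf4 0.75. Scaling by total counts moved the median to 0.29 and gave 6 factors higher and 3 lower. With muscle, adipocyte, mitochondrial and rRNA-linked genes removed before scaling, 3 factors were higher and 3 lower, with Zfp750 at -1.84 and Prdm1 at 1.38 as before.

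**Figure D2:**
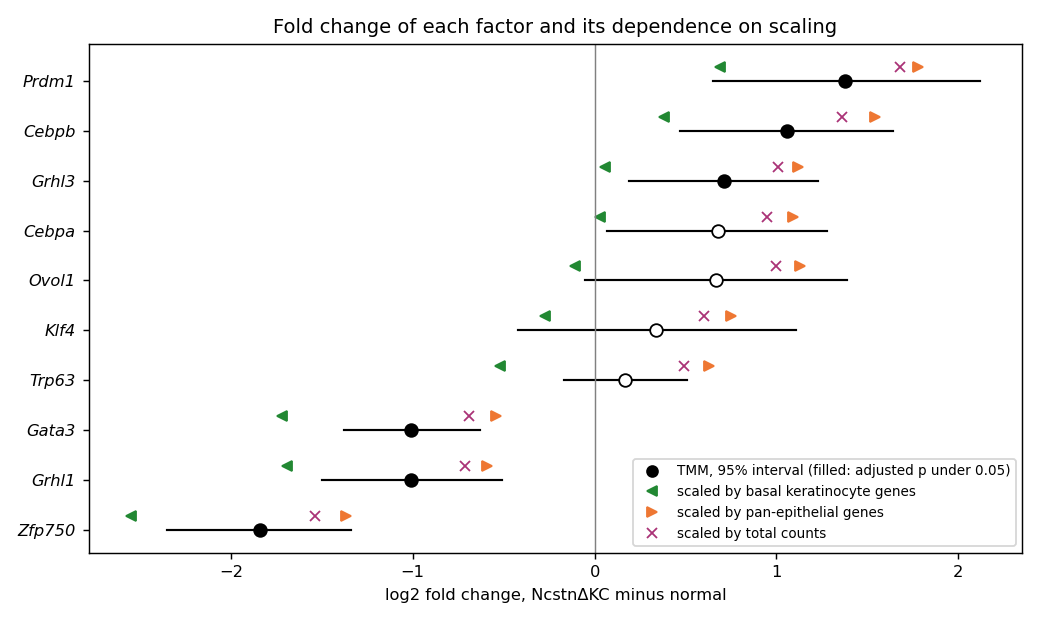
Log2 fold change of each factor, NcstnΔKC minus normal (horizontal axis), with the 95% interval of the TMM-scaled fit as a line and a filled circle where the adjusted p is under 0.05; triangles and crosses give the same fit with 3 other scalings. Zfp750, Gata3 and Grhl1 lie below 0 on every scale, whereas Trp63, Klf4 and Ovol1 fall on either side of 0.

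Levels of different genes can be compared only per gene length, for which the deposited FPKM (fragments scaled to gene length and sequencing depth) served. In normal skin the order was Klf4 (72.4 ± 22.8 FPKM, SD, n = 4), Zfp750 (64.9 ± 22.6), Gata3 (59.3 ± 12), Grhl1 (52.3 ± 8.99), Trp63 (41.6 ± 7.36), Grhl3 (24.1 ± 4.58), Ovol1 (18.5 ± 9.61), Cebpa (12.2 ± 1.99), Cebpb (12 ± 2.87) and Prdm1 (4.70 ± 1.48). Only 2 neighbours in that order had ranges that did not overlap, Trp63 above Grhl3 and Cebpb above Prdm1. In the libraries labelled NcstnΔKC the order was Klf4 (111 ± 52.0 FPKM, SD, n = 4), Trp63 (58.8 ± 7.04), Grhl3 (48.7 ± 11.8), Ovol1 (37.4 ± 6.39), Gata3 (37.0 ± 8.75), Grhl1 (32.2 ± 7.79), Cebpb (31.2 ± 12.1), Cebpa (23.9 ± 8.52), Zfp750 (22.5 ± 3.34) and Prdm1 (15.1 ± 5.43). Here Klf4 above Trp63 was the single pair of neighbours without overlap. Klf4 stayed first and Prdm1 last, while Zfp750 went from rank 2 to rank 9.

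Within a library the order of 2 genes does not depend on how libraries are scaled. Of 45 pairs of factors, 4 had 1 order in every normal library and the opposite order in every NcstnΔKC library. The share of such pairs among all genes was not computed. Since the groups did not overlap for 41.6% of all genes tested, such pairs may be common in these data. Grhl1 was above Grhl3 in all 4 normal libraries (61.8, 58.1, 45 and 44.2 against 27.2, 17.4, 26.9 and 24.8 FPKM in replicates 1 to 4) and below it in all 4 NcstnΔKC libraries (41.4, 36.0, 25.2 and 26.3 against 64.6, 50.7, 40.4 and 39.1 FPKM). The order of these paralogs thus differed between the groups, whose libraries are not paired. The other 3 pairs were Gata3 and Trp63, Zfp750 and Grhl3, and Zfp750 and Ovol1, the first of each being higher in normal skin.

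**Figure D3:**
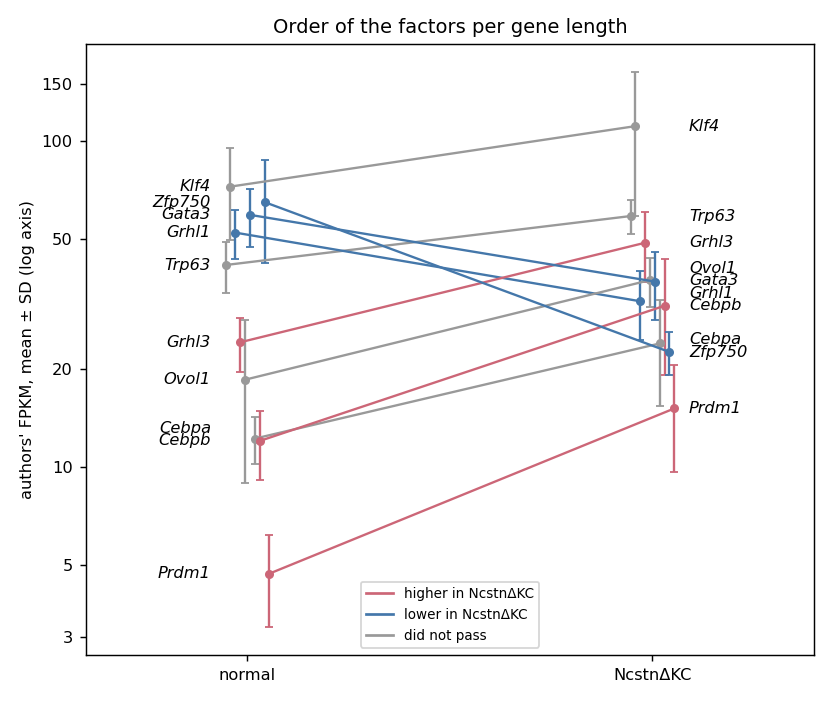
Mean ± SD of the deposited FPKM (log axis) of each factor in the 4 normal and the 4 NcstnΔKC libraries, joined by a line that is coloured by the edgeR call on counts. Zfp750 drops from 64.9 to 22.5 FPKM and crosses Ovol1 and Grhl3, and the lines of Grhl1 and Grhl3 cross.

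Ratios of counts within a library need no scaling, and they separated the groups for the 3 factors that fell but not for all that rose. The log2 ratio of Grhl3 to Grhl1 was -2.05, -2.60, -1.60 and -1.70 in the normal libraries and -0.22, -0.37, -0.18 and -0.29 in the NcstnΔKC libraries, a 3.30-fold difference with no overlap. The groups already did not overlap in either gene, in opposite directions. The lack of overlap in their ratio, and its permutation p, thus follow from the single genes and add nothing to them. NcstnΔKC replicate 1, which stood out in the single genes, did not stand out in this ratio. Relative to Trp63, Zfp750 was 3.95-fold lower in the libraries labelled NcstnΔKC (mean log2 ratio -1.37 ± 0.59 and -3.35 ± 0.13, SD, n = 4 each), Grhl1 2.34-fold lower and Gata3 2.29-fold lower, and Grhl3 was 1.41-fold higher, each without overlap. Prdm1 (2.24-fold higher), Cebpb (1.77), Ovol1 (1.53), Cebpa (1.32) and Klf4 (1.04) overlapped between the groups relative to Trp63, as did Cebpb relative to Cebpa (1.34). The 5 ratios without overlap each had an exact two-sided permutation p of 0.0286, the smallest that 70 arrangements allow, which over 11 ratios gives an adjusted p of 0.0629, so none passed after adjustment.

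**Figure D4:**
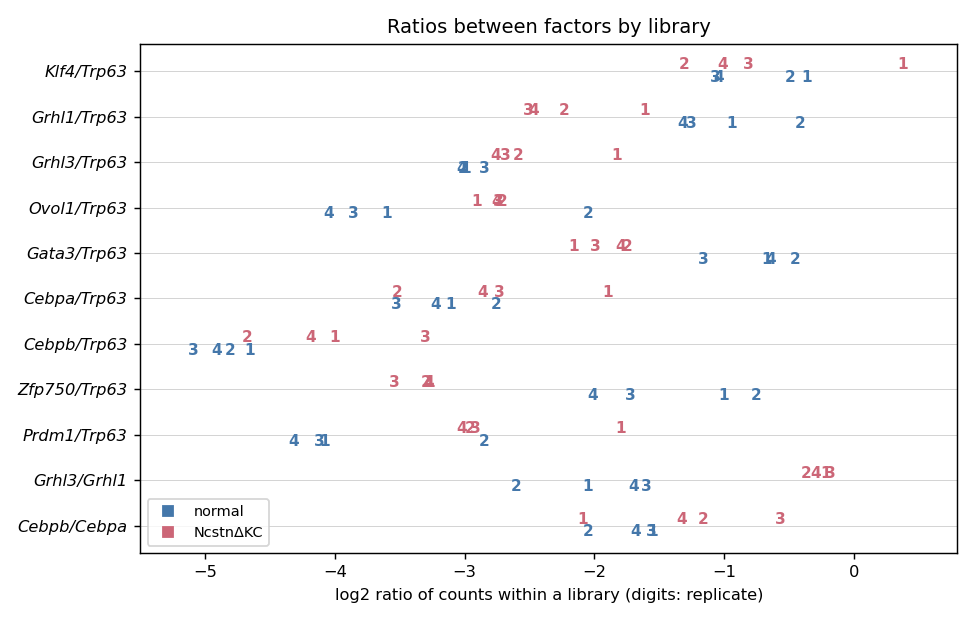
Log2 ratio of counts of 2 factors within each library (horizontal axis) for 11 ratios, each library drawn as its replicate number, normal below the line and NcstnΔKC above it. Grhl3 over Grhl1 runs from -2.60 to -1.60 in normal libraries and from -0.37 to -0.18 in NcstnΔKC libraries, and Zfp750 over Trp63 is lower in every NcstnΔKC library.

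The 250 bases before the transcript start are shown for the 3 factors that rose, to show the letters before genes that changed in the same direction. They come from RefSeq's table for GRCm38.p6, which holds promoters of 7 of the 10 factors, and were searched on both strands for the letters of 9 motifs. Capitals mark matches to the Klf motif CACCC, or to its reverse complement, and to the AP-1 motif TGANTCA. The start used for Prdm1 lies inside the annotated gene.
Prdm1 (chr10:44458749-44458998, minus strand): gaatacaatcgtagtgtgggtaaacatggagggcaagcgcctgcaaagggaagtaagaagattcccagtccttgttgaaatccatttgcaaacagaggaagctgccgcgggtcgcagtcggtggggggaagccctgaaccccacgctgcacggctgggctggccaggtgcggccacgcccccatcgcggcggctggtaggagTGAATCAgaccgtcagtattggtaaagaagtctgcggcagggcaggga
Grhl3 (chr4:135573633-135573882, minus strand): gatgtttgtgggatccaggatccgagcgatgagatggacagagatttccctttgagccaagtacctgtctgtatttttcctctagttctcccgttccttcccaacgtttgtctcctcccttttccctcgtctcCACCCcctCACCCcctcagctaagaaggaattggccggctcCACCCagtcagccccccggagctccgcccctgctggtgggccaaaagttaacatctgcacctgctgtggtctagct
Cebpb (chr2:167688665-167688914, plus strand): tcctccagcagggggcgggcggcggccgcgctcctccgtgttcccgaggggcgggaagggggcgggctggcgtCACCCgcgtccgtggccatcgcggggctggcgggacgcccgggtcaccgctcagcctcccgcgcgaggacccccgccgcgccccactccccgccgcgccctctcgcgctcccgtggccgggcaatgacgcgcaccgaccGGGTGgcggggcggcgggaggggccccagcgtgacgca

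The Prdm1 window holds 1 match to the AP-1 letters, which 6.75% of 32851 promoter windows of this length hold, and no other of the 7 factors' windows had one. CACCC occurs 3 times in the Grhl3 window and 2 times in that of Cebpb, against 52.0% of all windows with at least 1 match. It also occurs 3 times before Gata3, a gene that fell, so both a rise and a fall had these letters 3 times. The p53 family motif, held by 63.5% of all windows, were found before Grhl3 (1 match), Prdm1 (3 matches) and Cebpb (6 matches), and also before Gata3, Klf4, Cebpa and the first of 2 starts of Grhl1. One of these matches overlaps a CACCC match in the Grhl3 window and another does so in the Cebpb window. The Grhl motif AACCNGTT (1.79% of all windows), the GATA factor motif AGATAA (9.99%), the Ovol motif CCGTTA (2.18%), the Prdm1 motif (0.941%) and the strict C/EBP motif TTGCGCAA (0.164%) were in none of the 8 windows of the 7 factors. The looser C/EBP motif TTNCNNAA (36.8%) was found in that first Grhl1 window and in no other of the 8. A match is a description of the letters and not of binding.

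The comparison was repeated with regard to Xist, since 2 libraries of each group carry it. Among the 10 factors the direction was the same in the libraries with and without Xist, except that the difference in Trp63 was 0.00 and 0.35 on the log2 scale. Zfp750 had -1.56 with Xist and -2.05 without, Gata3 -1.01 and -1.01, Grhl1 -1.21 and -0.87, Prdm1 1.24 and 1.47, and Cebpb 1.32 and 0.75 (log2 ratios of mean CPM, n = 2 each). Fitted alone, the 4 libraries with Xist gave 4267 genes higher and 4120 lower, against 3 and 1 in the 4 without. A test of the interaction of group and Xist status by edgeR called 0 of 15684 genes, with 917 at an unadjusted p under 0.05. Among the factors Grhl3 had the lowest unadjusted p, with a difference of -0.95 ± 0.35 between the libraries with and without Xist (SE, edgeR adjusted p = 0.836).

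Beyond the 10, a list of 29 other epidermal regulators was read from the same fit. Of these, 10 rose, 7 fell and 12 did not pass, with a median log2 fold change of 0.20. Among all genes tested, 21.4% were called higher and 22.7% lower. The largest rise was in Elf3, an ETS factor of epithelia under inflammatory stimulation, from 1.52 ± 0.687 to 19.8 ± 12.2 CPM (SD, n = 4 each; log2 fold change 3.73 ± 0.61, edgeR adjusted p = 0.00177). Cebpd, a relative of Cebpb, rose by 2.55 ± 0.37 on the log2 scale, from 8.67 to 14.4 CPM in the normal libraries to 42 to 122 CPM in the NcstnΔKC libraries. The ETS factor Ehf (1.75 ± 0.26) and the POU factor Pou3f1 (1.84 ± 0.22), both of keratinocyte differentiation, also rose. So did the p63 relative Trp73 (1.46 ± 0.31).

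The largest falls among them were in Msx2 and Dlx3, homeobox factors of the hair follicle, and the size of these falls rested largely on 1 library. Msx2 had 83.3 CPM in normal replicate 2 and 3.49 to 5.65 CPM in the other normal libraries, against 0.940 to 2.73 CPM in the NcstnΔKC libraries (-3.98 ± 1.14, and -1.49 without normal replicate 2). Dlx3 had 263 CPM in normal replicate 2 and 19.4 to 33.1 CPM in the others, against 8.57 to 15.4 CPM (-2.78 ± 0.83, and -1.04 without normal replicate 2). Both still passed without that library, but not with limma-voom (-2.55 and -1.83), with no filter (-3.81 and -2.62) or in either fit on FPKM. Neither passed in the libraries without Xist, and the DESeq2 test gave no adjusted p for them. The call for Msx2 also ended without NcstnΔKC replicate 3 (-3.81) or 4 (-3.80), and that for Dlx3 without NcstnΔKC replicate 2 (-2.81), 3 (-2.63) or 4 (-2.76) and with the replicate block (-1.86). Tfap2b, an AP-2 factor, fell from 94.7 ± 23.2 to 17.1 ± 3.90 CPM (-2.47 ± 0.23, SD and SE, n = 4 each), and Barx2, a homeobox factor, by 1.19 ± 0.29 on the log2 scale. Klf5, a Krüppel-like factor of proliferating epithelium, fell from 230 ± 56.7 to 114 ± 11.5 CPM (-1.02 ± 0.18). Ovol2, the paralog of Ovol1, was scarce at 1.24 to 4.95 CPM (-1.04 ± 0.35), a call that ended under 12 of 26 alternatives, among them the replicate block (-1.0, adjusted p = 0.0594) and leaving out normal replicate 1 (-0.89) or 4 (-0.74) or NcstnΔKC replicate 2 (-1.03), 3 (-0.91) or 4 (-0.96).

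The relatives of the factors were read family by family. In the grainyhead-like family Grhl1 fell and Grhl3 rose, while Grhl2, the third member, had 68.6 ± 11.3 and 78.8 ± 11.8 CPM (SD, n = 4 each; log2 fold change 0.20 ± 0.16) and did not pass. Of the 4 C/EBP genes read, Cebpb, Cebpd and Cebpg (0.49 ± 0.18) rose, and Cebpa had 0.68 without passing, so all 4 values were above 0. With basal keratinocyte scaling Cebpd (1.93) still passed, while Cebpb (0.38) and Cebpa (0.03) did not. The call for Cebpg (adjusted p = 0.0471) was close to the threshold and was not refitted under the alternatives.

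Of 15 chromatin regulators studied in epidermis, 2 rose, 5 fell and 8 did not pass. That share of calls was near the 44.1% of all genes tested that were called. Actl6a, a subunit that keeps progenitors undifferentiated, rose by 0.90 ± 0.17 on the log2 scale, and the deacetylase gene Sirt1 by 0.52 ± 0.18. The call for Actl6a ended with scaling by basal keratinocyte genes (0.20), and that for Sirt1 under 11 of 26 alternatives besides 1 that turned its sign, with the replicate block (0.49, adjusted p = 0.0594) and without normal replicate 3 (0.55), normal replicate 4 (0.56), or NcstnΔKC replicate 1 (0.38), 2 (0.52) or 3 (0.52) among them. Setd8, the histone H4 methyltransferase also named Kmt5a, fell from 149 ± 11.6 to 54.1 ± 5.54 CPM (SD, n = 4 each; -1.46 ± 0.12, edgeR adjusted p = 0.000106). Smarca4, the BRG1 remodelling enzyme, fell as well (-0.68 ± 0.13), a call that did not hold with scaling by pan-epithelial genes (-0.23) or in the fits on FPKM (-0.33 and -0.34).

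**Figure D5:**
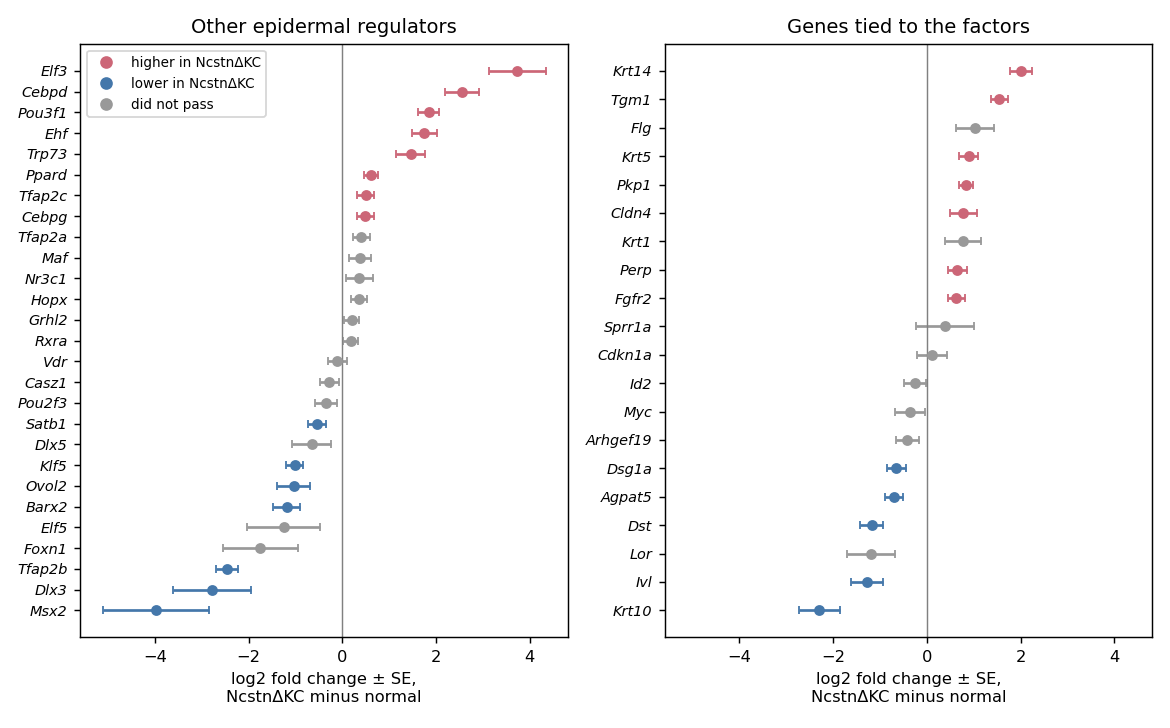
Log2 fold change ± SE, NcstnΔKC minus normal (horizontal axis), of 27 of the 29 other epidermal regulators (left) and of 20 genes tied to the factors as structural genes or reported targets (right), coloured by the edgeR call. Rises and falls occur in both lists, from -3.98 for Msx2 to 3.73 for Elf3 on the left and from -2.30 for Krt10 to 2.01 for Krt14 on the right.

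A list of 20 genes that earlier work ties to the factors, as targets or as products of the layer where they act, held 7 that rose, 5 that fell and 8 that did not pass, with a median of 0.24. Calls were made for 44.1% of all genes tested. Among genes tied to p63 in the basal layer, Krt14 (2.01 ± 0.24), Krt5 (0.89 ± 0.20), the desmosomal gene Pkp1 (0.84 ± 0.15), the junction gene Perp (0.65 ± 0.21) and the growth factor receptor gene Fgfr2 (0.63 ± 0.18) rose, and Dst, of the hemidesmosome, fell (-1.18 ± 0.24). The list used for basal keratinocyte scaling holds Krt5, Krt14 and Dst, and that for pan-epithelial scaling Pkp1 and Perp, so these genes are not independent of those scales. Apart from Krt14 these rises did not pass with scaling by basal keratinocyte genes, where Perp had 0.00, and that for Fgfr2 reversed to -0.04. The call for Perp also ended without normal replicate 2 (0.65), 3 (0.69) or 4 (0.68) or NcstnΔKC replicate 3 (0.70), and that for Fgfr2 without NcstnΔKC replicate 2 (0.56) and in the libraries with Xist alone (0.33).

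Of the genes tied to the grainyhead-like factors, 1 rose and 1 fell. Tgm1, the transglutaminase that cross-links the cornified envelope and is tied to Grhl3, had 68.8 to 114 CPM in the normal libraries and 218 to 260 CPM in the NcstnΔKC libraries (1.54 ± 0.18, edgeR adjusted p = 0.000397). Dsg1a, a desmosomal cadherin gene tied to Grhl1, had 842 to 1049.4 CPM and 460 to 796 CPM (-0.65 ± 0.20, edgeR adjusted p = 0.0248). The groups did not overlap in either gene. The call for Dsg1a ended under 11 of 26 alternatives, among them leaving out normal replicate 1 (-0.52), 3 (-0.58) or 4 (-0.62) or NcstnΔKC replicate 3 (-0.56) or 4 (-0.54), and ran from -1.32 to -0.23. Arhgef19, which Grhl3 acts on in wound closure, had -0.42 ± 0.25 and did not pass.

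Products of the suprabasal and cornified layers went in several directions. Krt10 fell from 4816.1 ± 1524.1 to 977 ± 546 CPM (SD, n = 4 each; -2.30 ± 0.44), whereas its partner Krt1 had 0.77 ± 0.38 and did not pass, except without normal replicate 3 (1.14) and with total-count scaling (1.10), pan-epithelial scaling (1.21) and the fits on FPKM (1.12 in both). Markers of the suprabasal layer together took 0.863% to 1.82% of normal counts and 0.669% to 1.34% of NcstnΔKC counts. The envelope gene Ivl fell by 1.28 ± 0.34 on the log2 scale, a call that ended with pan-epithelial scaling (-0.83) and when NcstnΔKC replicate 1 and normal replicate 2 were both left out (-1.03), and the tight junction gene Cldn4 rose by 0.78 ± 0.28 with an adjusted p of 0.0499, a call that ended without normal replicate 1 (0.82), 3 (0.74) or 4 (0.70) and without NcstnΔKC replicate 1 (0.67), 2 (0.75) or 3 (0.84). Lor (-1.19 ± 0.51), Flg (1.03 ± 0.41) and Sprr1a (0.39 ± 0.62) did not pass. Without NcstnΔKC replicate 1 Lor had -2.05 and passed, without normal replicate 3 Flg had 1.36 and passed, and without normal replicate 2 Sprr1a had 1.58 and passed. The deposited table lists 7 genes named Flg with overlapping positions, of which the one with the most counts was used, so its counts may be split.

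Genes that Ovol1 or Prdm1 are reported to repress did not pass. Myc had -0.36 ± 0.32 and Id2 -0.26 ± 0.23, and the cell cycle inhibitor gene Cdkn1a, tied to Klf4, had 0.10 ± 0.32. Each of the 3 changed sign under some alternatives, and with basal keratinocyte scaling Myc (-0.98, adjusted p = 0.0199, with a range over the alternatives of 0.0199 to 0.92) and Id2 (-0.93, adjusted p = 0.0117, with a range of 0.0117 to 0.991) passed as lower. Agpat5, a lipid enzyme gene tied to Gata3, fell by 0.70 ± 0.19 on the log2 scale, and that call ended without normal replicate 3 (-0.46) and with scaling by pan-epithelial genes (-0.25).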

How the data were processed

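The authors deposited 1 table with raw whole-number counts per Ensembl gene for 8 libraries, and a second set of columns that, per the file headers, are FPKM; over 9175 genes each was proportional to that gene's count over the library total, with a coefficient of variation of at most 5.98e-06. The submitters' processing notes name TopHat2 2.0.9, TopHat and HTSeq and the builds mm10 and hg38, with no settings. The annotation release, strand setting and treatment of reads with several positions are not given in the sources used here. Of the 10 factors, 8 have the same coordinates in GENCODE M21 for mm10 as in the table. Total counts of 5835422 to 12893174 per library limit the precision of scarce genes.

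Genes were filtered with filterByExpr, scaled by TMM and compared with a two-sided, robust quasi-likelihood fit in edgeR 4.0.16 under R 4.3.3, with Benjamini-Hochberg adjustment over all 15684 genes and a threshold of 0.05. Standard errors are the fold change over the square root of F. Replicate numbers were not taken as pairs: deviations of same-numbered libraries correlated at -0.02, -0.03, -0.01 and 0.22. Libraries of a group differed by 9.79 to 109 in chi-square per gene, so none is a copy. Tested on simulated data in a single run, the fit recovered most of the largest changes and few or none of the smaller ones. A larger share of its calls was false than the threshold names. Far fewer genes were changed there than were called in the data, so these shares need not hold for the main fit. Marker shares and ratios were compared by an exact permutation test. Alternatives used DESeq2 1.42.0 and limma 3.58.1. Tables and figures were made with Python 3.11.15, pandas 2.3.3 and matplotlib 3.10.9.

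The 10 factors, the gene lists and the tests were chosen with earlier results of these data known. Named were all 10, all 20 genes tied to them, up to 6 of the other regulators and up to 3 chromatin regulators per direction by size of change past the threshold, and Ncstn. Grhl2 and Cebpg were named after their values were seen. A few genes of these lists are counted but not reported here by name. All 215 list entries were matched, 1 by a synonym. Ratios between factors and leaving out NcstnΔKC replicate 1 together with normal replicate 2 were added after seeing the data.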

Additional observations from a re-analysis of the deposited data

Results flagged for a closer look

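Within groups of 4 libraries, the gap between the highest or lowest library and its nearest neighbour was set against Dixon's 95% critical value in 92 groups, for the 10 factors and the other named genes. It was exceeded in 16 groups. Chance gives about 1 in 20 for independent, normally distributed values, but these genes share the same libraries and were read on unlogged CPM. Some were also named for the size of their change, so that rate need not hold here. Among the factors, Klf4 was apart in replicate 1 of both groups (481 CPM in normal and 828 CPM in NcstnΔKC), Prdm1 in NcstnΔKC replicate 1 (183 CPM) and Trp63 in NcstnΔKC replicate 2 (736 CPM). NcstnΔKC replicate 1 was also apart in Flg (2303.7 CPM), Lor (224 CPM), Cdkn1a (199 CPM), Cebpd (122 CPM) and Actl6a (38.9 CPM), and NcstnΔKC replicate 2 in Ivl (144 CPM). Normal replicate 2 was apart in Sprr1a (924 CPM), Dlx3 (263 CPM), Tgm1 (114 CPM) and Msx2 (83.3 CPM). Normal replicate 1 was apart in Myc (118 CPM) and Id2 (33.6 CPM). In each of the 16 the library apart was the highest of its group.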

How the results depend on the processing

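Over 26 alternatives the falls of Zfp750, Gata3 and Grhl1 kept their direction in all and passed in 25, and the rises of Prdm1 and Cebpb kept theirs in all and passed in 24. Counts of genes higher and lower (3360 and 3555) became 5323 and 2224 with total-count scaling, 6024 and 1750 with pan-epithelial scaling, 711 and 7776 with basal keratinocyte scaling, 5351 and 2115 with limma-trend on log2(FPKM + 1), 5315 and 2122 with 0.1 added, and 3 and 1 in the libraries without Xist; the higher share of calls was 48.6%, 70.5%, 77.5%, 8.38%, 71.7%, 71.5% and 75.0%, and 44.0% with upper-quartile scaling. In the 4 libraries with Xist alone the counts were 4267 higher and 4120 lower. Leaving out 1 library gave 2733 to 3870 genes higher and 2722 to 4124 lower. Factors called higher (3) became 6 with total-count scaling and either FPKM fit, 7 with pan-epithelial scaling, and 4 with Xist alone, no filter, the DESeq2 test or limma-voom. They became 0 with basal keratinocyte scaling and without Xist, and 2 to 3 without 1 library. Factors called lower (3) became 0 without Xist and stayed at 3 without any 1 library. Same-numbered libraries do not pair by their deviations, and the replicate block gave 2923 genes higher and 3058 lower; it ended the calls of Grhl3, Dlx3 (-1.86), Ovol2 and Sirt1 and made those of Ovol1 and Lor (-1.52), and no other among the genes refitted under the alternatives, which do not include Grhl2 and Cebpg. Signs turned with basal keratinocyte scaling in Trp63 (-0.52), Klf4 (-0.27), Ovol1 (-0.11), Fgfr2 (-0.04), Cdkn1a (-0.57), Sprr1a (-0.44) and Sirt1 (-0.16); with pan-epithelial scaling in Arhgef19 (0.05), Myc (0.11), Id2 (0.22) and Ncstn (0.38); with total-count scaling in Id2 (0.03) and Ncstn (0.24); with the FPKM fits in Myc (0.04 and 0.06), Id2 (0.06 in both) and Ncstn (0.23 and 0.25); with Xist alone in Arhgef19 (0.06) and Id2 (0.17); without Xist in Sprr1a (-0.03); with no filter in Ncstn (0.06); without NcstnΔKC replicate 1 in Klf4 (-0.12) and Cdkn1a (-0.28), and without normal replicate 2 as well in Klf4 (-0.16) and Cdkn1a (-0.11); without normal replicate 1 in Myc (0.15), Id2 (0.00) and Ncstn (0.01), and without normal replicate 3 in Ncstn (0.00). Leaving out libraries gave -0.16 to 0.59 for Klf4, -0.62 to 0.15 for Myc, -0.36 to 0.00 for Id2, -0.28 to 0.33 for Cdkn1a and -0.14 to 0.01 for Ncstn. The cause of these shifts was not tested. With 4 libraries a group and 5835422 to 12893174 counts each, a factor that did not pass may still differ.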
